A study of Mus musculus with 20 samples.

Results

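The 10 core clock genes described here are Per1, Per2, Per3, Cry1, Cry2, Arntl, Clock, Nr1d1, Dbp and Ciart. They were taken by name from a count table of 29200 Ensembl gene IDs. All 10 were found, and all 10 passed the filter on low counts (50 or more on average), as did 12153 genes in all. The libraries were made from polyA-enriched, stranded cerebellar mRNA of male C57BL6/N mice, 1 mouse per library. Each of the 4 groups held 5 mice. WT/WT mice carried 2 wild-type Atxn3 alleles and 304Q/304Q mice 2 knock-in alleles with 304 CAG repeats, and both genotypes were examined at 2 months (before symptoms) and at 12 months (symptomatic). The knock-in mice, a model of spinocerebellar ataxia type 3, descend from 1 founder line made with zinc-finger nucleases. Its repeat is an interrupted tract that codes for glutamine, set into the mouse gene under its own promoter. The labels name the wild-type gene ataxin-2, and the study describes Atxn3. The mice were kept under a 12-hour light-dark cycle, and the time of day at which each cerebellum was taken is not given in the sources used here.

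The mammalian clock is a transcription loop in which the proteins of Clock and Arntl (also called Bmal1) pair up, bind E-box sequences and switch on the Per and Cry genes, whose proteins accumulate and block that same pair. A second loop runs through Nr1d1 (REV-ERB alpha), a repressor that is switched on through E-boxes and in turn shuts off Arntl at ROR elements, so that Arntl transcripts peak at roughly the opposite time of day to those of Nr1d1, Dbp and the Per genes. Dbp is a transcription factor that carries the rhythm to other genes through D-boxes, and Ciart (also called Chrono) is a repressor of the Clock and Arntl pair. The cerebellum holds such a clock, and Per1 and Per2 are also switched on quickly by glucocorticoids and by neuronal activity.

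The elements through which these loops act can be read in the sequence before the genes. RefSeq promoter windows on GRCm38.p6, from 250 bases before to 50 bases after a transcription start, were at hand for 9 of the members, with 13 windows in all, and were searched on both strands for 5 motifs: the E-box CACGTG, the E'-box CACGTT, the D-box TTANNTAA, the ROR element core TAGGTCA and the cAMP response element TGACGTCA. None of these 5 overlaps another in the windows printed here. The counts below are of members, some of which have more than 1 window, and the shares are of single windows. The E-box was found in the windows of 3 members (Per1, Cry1 and Ciart) and in 7.15% of all 32851 mouse windows. The E'-box was found in 3 members (Cry1, Cry2 and Nr1d1) and in 4.68% of all windows, the D-box in 1 (Per3) and 6% of all, and the ROR element core in 1 (Arntl, after the start) and 2.61% of all. The cAMP response element was found in 0 members and in 1.79% of all windows. The stretches that hold matches before the start, outside annotated exons of the gene, are shown to give the place and surroundings of each match. They are printed 5′ to 3′ on the strand of the gene, with the motif in capitals. They come from chr11:69098753-69098818 (+) for Per1, chr4:151044786-151044900 (-) for Per3, chr10:85185079-85185163 (-) for Cry1, chr2:92434200-92434265 (-) for Cry2, chr11:98775378-98775435 (-) for Nr1d1 and chr3:95882252-95882374 (-) for Ciart.
Per1, E-box: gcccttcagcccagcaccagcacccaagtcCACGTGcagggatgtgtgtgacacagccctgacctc
Per3, D-boxes: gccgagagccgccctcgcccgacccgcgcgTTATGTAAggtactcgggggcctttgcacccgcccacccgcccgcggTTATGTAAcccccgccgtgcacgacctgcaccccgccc
Cry1, E'-box (reverse strand) and E-box: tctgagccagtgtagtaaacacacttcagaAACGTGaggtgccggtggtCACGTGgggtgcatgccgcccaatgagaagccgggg
Cry2, E'-box (reverse strand): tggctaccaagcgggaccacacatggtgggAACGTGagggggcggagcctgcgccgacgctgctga
Nr1d1, E'-box (reverse strand): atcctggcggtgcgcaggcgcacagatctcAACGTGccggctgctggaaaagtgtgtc
Ciart, E-boxes: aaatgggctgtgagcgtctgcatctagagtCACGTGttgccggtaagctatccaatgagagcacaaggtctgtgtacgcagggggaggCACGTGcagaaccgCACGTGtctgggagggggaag
The Ciart stretch holds 3 E-boxes and the Per3 stretch 2 D-boxes. The window of Dbp held none of the 5 motifs, which says only that these letters are not in that window. The matches are descriptions and not measured binding sites.

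Library totals lay between 11385380 and 27636687 counts, and counts were scaled to the mean library size by edgeR's TMM factors (normalized counts). The cerebellar markers were abundant: the summed markers of granule cells lay between 55770 and 73570 normalized counts per library and those of Purkinje cells between 62930 and 92820. Choroid plexus markers differed widely between libraries. Their sums ran from 173.6 to 261.3 in the WT/WT mice of 2 months and from 298.8 to 29810 in those of 12 months. In 304Q/304Q mice they ran from 178.9 to 24320 at 2 months and from 191.6 to 21210 at 12 months. Atxn3 itself, the targeted gene, had a mean of 278 ± 42 normalized counts (SD, n = 5) in WT/WT and 191 ± 30.8 (SD, n = 5) in 304Q/304Q mice at 2 months, and 222 ± 16 against 203 ± 17.6 at 12 months. A knock-in leaves the transcript in place. At 2 months the log2 fold change was −0.54 (SE 0.11), which missed the threshold by edgeR (adjusted p = 0.0916) and passed it by DESeq2, and at 12 months it was −0.13 (edgeR adjusted p = 0.51).

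In levels per length, Nr1d1 stood well above the other members. It had 98.8 ± 5.72 RPKM (SD, n = 5) in WT/WT mice at 2 months, computed here from the TMM-scaled counts and the exonic length. Per1 followed with 30.8 ± 12.2 RPKM, a range between mice that reached over those of Cry2 (21.1 ± 1.17 RPKM) and Dbp (20.6 ± 2.33 RPKM), and these last did not differ from each other beyond their spread. Ciart (11.6 ± 1.21), Cry1 (10.7 ± 2.58) and Clock (9.28 ± 1.34 RPKM) were likewise not separated by their spread, and the wide range of Per2 (7.07 ± 3.58 RPKM) took in those of Arntl (6.42 ± 0.68) and Per3 (5.23 ± 0.487 RPKM). Arntl was higher than Per3 in each of these 5 mice.

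**Figure D1:**
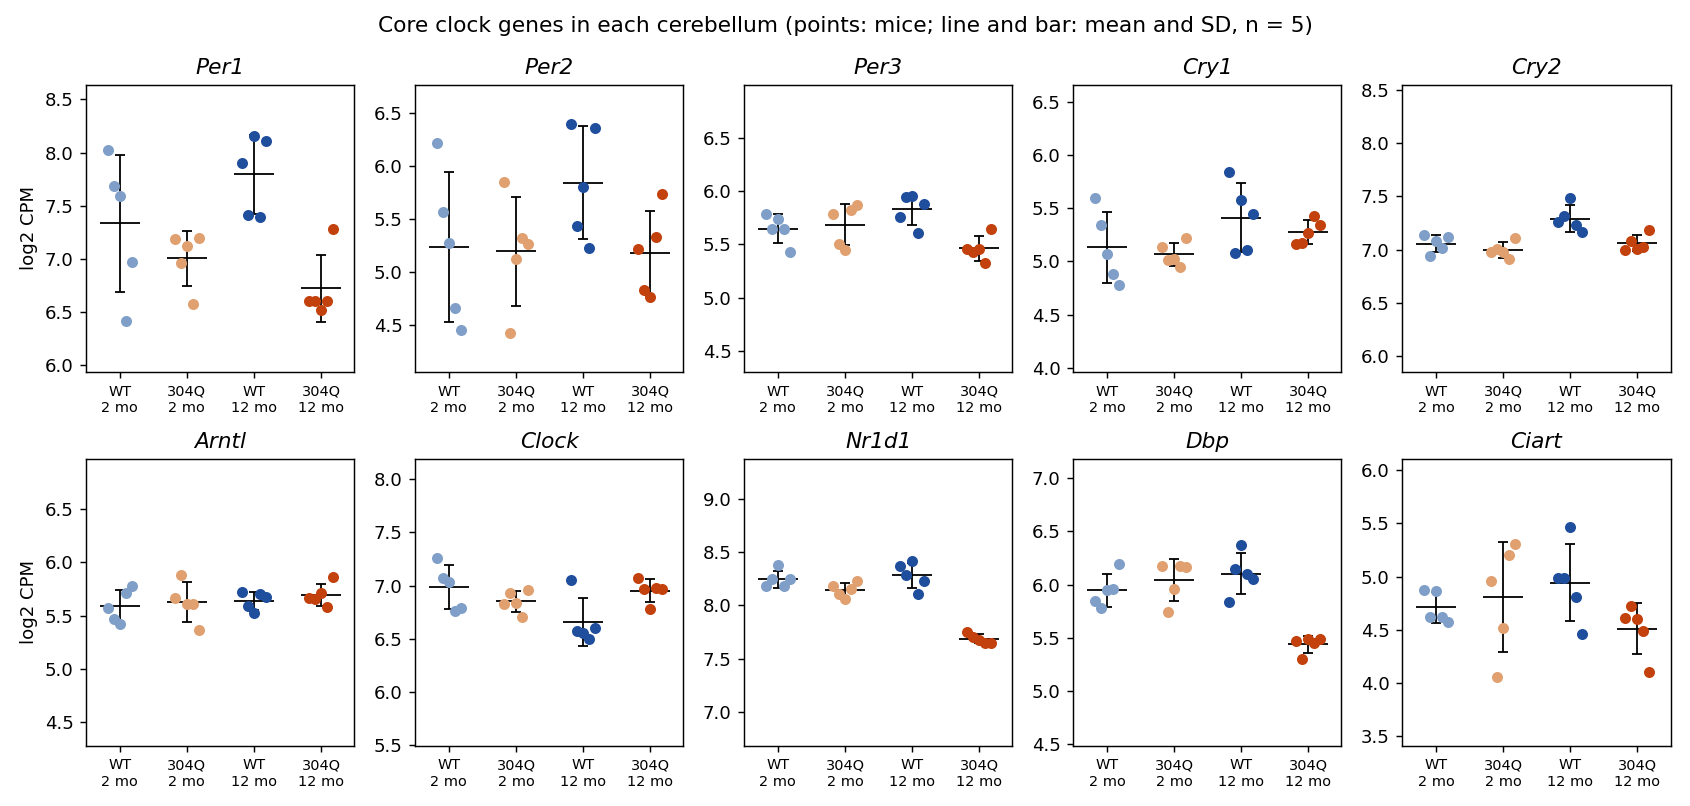
Each panel plots log2 CPM (the count scaled for library size with TMM factors, on a log2 scale, prior count of 2) of 1 core clock gene for the 20 mice in the 4 groups, with 5 mice each, and all panels span the same number of log2 units. Horizontal lines are group means and bars are 1 SD; Nr1d1 and Dbp of the 12-month 304Q/304Q mice sit below every other mouse of the study, and Per1 and Per2 scatter widely within groups.

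At 12 months, 304Q/304Q mice had lower levels of 5 of the 10 core clock genes, and higher levels of 0, than WT/WT mice by an adjusted p of 0.05 or less (edgeR quasi-likelihood test, Benjamini-Hochberg over all 12153 genes tested). They were Nr1d1, Dbp, Per1, Per3 and Cry2. Of all genes tested, 12.5% passed in either direction and 7.3% were lower. The median log2 fold change of the 10 members was −0.41, with 8 of them below 0, against −0.0039 over all genes tested, of which 50.9% were below 0. Where the log2 fold change also had to reach 0.5 in either direction, 3 members (Nr1d1, Dbp and Per1) were differentially expressed, against 3.09% of all genes, and the same 3 were the members whose groups did not overlap, each lower in 304Q/304Q mice, against 5.43% of all genes. Since the tissue was sequenced in bulk, fewer cells of a type and less RNA per cell cannot be told apart.

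Nr1d1 (ENSMUSG00000020889, chromosome 11, 98767932 to 98775333, GRCm38, minus strand), the repressor of the second loop, showed the smallest adjusted p of the members. Its normalized counts in the 12-month WT/WT mice were 3927, 4254, 4419, 4707 and 4856, and in the 304Q/304Q mice 2848, 2851, 2897, 2963 and 3063. All 5 304Q/304Q mice lay below all 5 WT/WT mice, and within 304Q/304Q they lay close together (SD 90.2 against 368). The log2 fold change was −0.60 (SE 0.06; 0.66-fold; edgeR adjusted p = 7.9e-08). On the opposite strand Nr1d1 shares 263 exonic bases with Thra, the thyroid hormone receptor alpha, and whether the counting used the strand is not given in the sources used here. Thra had a log2 fold change of −0.06 (SE 0.05, adjusted p = 0.48) in the same comparison.

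Dbp (ENSMUSG00000059824, chromosome 7, 45705088 to 45710203, plus strand), the output factor of the clock, had 812, 943, 972, 1006 and 1172 normalized counts in the 12-month WT/WT mice. In the 304Q/304Q mice it had 557, 620.05, 627, 635 and 637. The groups did not overlap, and 4 of the 5 304Q/304Q mice lay within a narrow range with the remaining one below them. The log2 fold change was −0.67 (SE 0.10; 0.627-fold; adjusted p = 2.91e-05). Dbp shares 539 exonic bases with Sphk2, a sphingosine kinase gene on the other strand, whose log2 fold change was −0.17 (SE 0.08, adjusted p = 0.189).

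The Per genes code for repressors of the first loop. Per1 (ENSMUSG00000020893, chromosome 11, 69095217 to 69109960, plus strand) had 2381, 2422, 3405, 3909.7 and 4049.7 normalized counts in 12-month WT/WT mice and 1305, 1376, 1379.6, 1383 and 2208 in 304Q/304Q mice. Although 1 304Q/304Q mouse stood well above the other four, it still lay below the lowest WT/WT mouse. Per1 had the largest log2 fold change of the members, −1.08 (SE 0.22; 0.474-fold; adjusted p = 0.00177), and without that mouse it was −1.25. Per3 (ENSMUSG00000028957, chromosome 4) had 692, 768, 832, 873 and 878 against 568, 610.05, 621, 622 and 710.3 normalized counts. Here the highest 304Q/304Q mouse reached above the lowest WT/WT mouse, and the log2 fold change was −0.37 (SE 0.09, adjusted p = 0.0082). Per2 (ENSMUSG00000055866, chromosome 1) had 529, 614, 792, 1159 and 1193 against 385, 402, 528, 569 and 756 normalized counts, with 3 WT/WT mice above every 304Q/304Q mouse. With this spread its log2 fold change of −0.69 (SE 0.29) did not pass the test (adjusted p = 0.119).

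The Cry genes code for the partners of the Per proteins in repression. Cry2 (ENSMUSG00000068742, chromosome 2) had 2032, 2134, 2167, 2266 and 2549.5 normalized counts in 12-month WT/WT mice and 1817, 1827, 1848, 1924 and 2066 in 304Q/304Q mice. The highest 304Q/304Q mouse reached just above the lowest WT/WT mouse, and the log2 fold change was small but precise (−0.23, SE 0.06; 0.851-fold; adjusted p = 0.00997). Cry2 shares 295 exonic bases with D930015M05Rik on the other strand, which had at most 38.8 normalized counts in any library. For Cry1 (chromosome 10) the WT/WT mice spanned 479 to 814 and the 304Q/304Q mice 506 to 609 normalized counts, so that the 304Q/304Q values lay inside the WT/WT range (log2 fold change −0.16, SE 0.14, adjusted p = 0.485). Ciart (ENSMUSG00000038550, chromosome 3) had 311, 397, 448, 449.8 and 625 against 243, 317, 344, 346 and 374 normalized counts. Its log2 fold change of −0.46 (SE 0.19) did not pass (adjusted p = 0.11).

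The 2 activators gave other values. Arntl (ENSMUSG00000055116, chromosome 7), the partner of Clock, had 651, 681, 721, 739 and 747 normalized counts in 12-month WT/WT mice and 679, 714, 717, 744 and 822 in 304Q/304Q mice. The groups overlapped almost fully, with a log2 fold change of 0.06 (SE 0.08, adjusted p = 0.714). Clock (ENSMUSG00000029238, chromosome 5) had 1279, 1329, 1352, 1378 and 1887 in WT/WT and 1559.7, 1776, 1781, 1783 and 1907 in 304Q/304Q mice. Of the WT/WT mice 4 lay below all 304Q/304Q mice and 1 (replicate 1) lay among the highest. The log2 fold change of 0.29 (SE 0.10) narrowly missed the threshold (adjusted p = 0.0527). Without WT/WT replicate 1 it was 0.40 (adjusted p = 0.00157). It passed with DESeq2 (adjusted p = 0.0288) and in 6 of the 20 edgeR fits that left out 1 library. With offsets for GC content and gene length the log2 fold change was 0.13 (adjusted p = 0.175).

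At 2 months, 0 of the 10 members passed the test between genotypes, by edgeR as by DESeq2, and 0.0494% of all genes did by edgeR, where 674 genes had an unadjusted p under 0.05. The lowest unadjusted p of a member was 0.0701, for Per1, with a log2 fold change of −0.41 (SE 0.22). Its normalized counts were 1208, 1775, 2732, 2923 and 3689 in WT/WT and 1354, 1766, 1972, 2072 and 2078 in 304Q/304Q mice, and 3 WT/WT mice lay above every 304Q/304Q mouse and 1 below. The other members had log2 fold changes between −0.14 (Clock) and 0.17 (Ciart). Nr1d1 had 4119, 4123, 4306, 4311 and 4733 normalized counts in WT/WT and 3782, 3922, 4056, 4117 and 4272 in 304Q/304Q mice, which overlap (log2 fold change −0.10, SE 0.06). Dbp had 778, 817, 876, 881 and 1038 against 757, 879, 1019, 1025 and 1025, with a log2 fold change of 0.10 (SE 0.09).

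Whether the genotype effect differed between the ages was tested directly, as the interaction of genotype and age. Nr1d1 and Dbp passed, both with a more negative effect at 12 months, against 1.95% of all genes in either direction and 1.31% in the negative one. For Nr1d1 the effect at 12 months was lower than that at 2 months by a log2 difference of −0.50 (SE 0.08, edgeR adjusted p = 0.00076) and for Dbp by −0.78 (SE 0.13, adjusted p = 0.00233). For Per1 this difference was −0.66 (SE 0.31, adjusted p = 0.298), for Per3 −0.41 (SE 0.13, adjusted p = 0.101), for Cry2 −0.17 (SE 0.08, adjusted p = 0.311) and for Clock 0.43 (SE 0.14, adjusted p = 0.116). The 12-month calls for Per1, Per3 and Cry2 are therefore not shown to be particular to that age. Without the 12-month WT/WT replicate 1, Clock passed the interaction as well, and the number of all genes that did rose from 237 to 555.

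**Figure D2:**
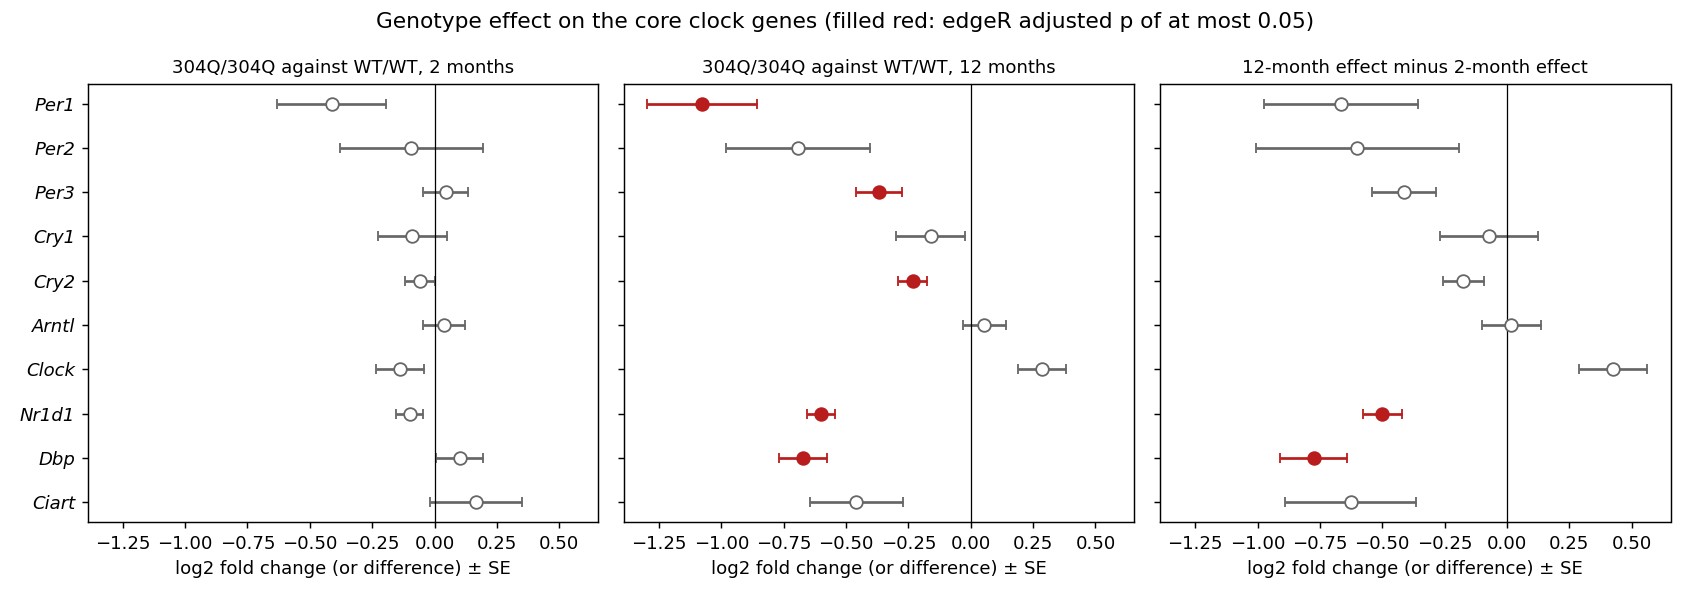
Log2 fold changes of 304Q/304Q against WT/WT mice at 2 months (left) and at 12 months (middle), and their difference (right), for the 10 core clock genes, with SE bars from the edgeR fit. Filled red points passed an adjusted p of at most 0.05: 0 genes at 2 months, 5 at 12 months (Per1, Per3, Cry2, Nr1d1 and Dbp) and 2 for the difference (Nr1d1 and Dbp).

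Within a genotype, the members were also compared between 12 and 2 months. These comparisons share their groups with those above and are not independent of them. In WT/WT mice 2 members passed, against 11.5% of all genes. Cry2 was higher at 12 months (log2 fold change 0.24, SE 0.06, adjusted p = 0.0119), from 1736, 1838, 1922, 1969 and 1991 to the 12-month values above. Clock was lower (−0.32, SE 0.10, adjusted p = 0.0315), from 1542, 1567, 1864, 1906 and 2173 at 2 months to values that were lower in all mice but replicate 1. The call for Clock was lost in 7 of the 10 fits that left out 1 WT/WT library, and with the offsets for GC content and gene length its log2 fold change was −0.09. Clock has the lowest GC content of the members, 41.5% over its annotated transcripts against 48.3% to 58.9% for the others. It also has the longest merged exonic sequence, 13727 bases.

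In 304Q/304Q mice 2 members passed, Nr1d1 and Dbp, both lower at 12 months, against 7.26% of all genes in either direction and 4.18% that were lower. Nr1d1 was lower by a log2 fold change of −0.46 (SE 0.06, adjusted p = 4.98e-06) and Dbp by −0.62 (SE 0.10, adjusted p = 1.22e-04). In WT/WT mice the same age comparison gave 0.04 (SE 0.06, adjusted p = 0.699) for Nr1d1 and 0.16 (SE 0.09, adjusted p = 0.275) for Dbp.

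Of 22 other genes of the clock, 21 were tested (Arntl2 was too low). In the genotype comparison at 12 months 4 of them had lower and 0 higher levels in 304Q/304Q mice (5 in all by DESeq2). Of all genes tested, 7.3% were lower by edgeR, and 5.43% were lower without overlap between the groups. The list's median log2 fold change was −0.13. The 4 were Usp2, a clock-controlled deubiquitinase (−0.55, adjusted p = 1.11e-04), Bhlhe40, a repressor at E-boxes (−0.40, adjusted p = 0.00103), Wee1, a cell cycle kinase under clock control (−0.41, adjusted p = 0.0298), and Tef, a D-box factor related to Dbp (−0.31, adjusted p = 0.0111), and none of the 4 overlapped between the groups. Nr1d2, the paralogue of Nr1d1, had −0.10 (SE 0.13), and Npas2, which can stand in for Clock, had 0.21 (SE 0.22), neither passing. At 2 months 0 of the 21 passed by edgeR and 0 by DESeq2, with 2 at an unadjusted p under 0.05. With age, 2 of the 21 were higher and 0 lower at 12 months in WT/WT mice by edgeR, against 11.5% of all genes in either direction. Usp2 was 1 of them (0.36, edgeR adjusted p = 0.00937). In 304Q/304Q mice 1 was higher and 0 lower at 12 months, against 7.26% of all genes. For the interaction 0 of the 21 passed by edgeR and 1 by DESeq2, with 5 at an unadjusted p under 0.05.

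Other gene groups also moved in the same comparison, in which 12.5% of all genes passed in either direction and 7.3% were lower. Of 12 glucocorticoid-responsive genes 11 were tested (Plin4 was too low), and 8 were lower in 304Q/304Q mice at 12 months, with a median log2 fold change of −0.61. Among them were Cdkn1a, a cell cycle inhibitor (−0.88, adjusted p = 4.2e-04), Tsc22d3 (−0.61, adjusted p = 0.00529) and the metallothionein Mt2 (−1.01, adjusted p = 6.17e-04). Their summed level was 7602 to 8365 normalized counts in 304Q/304Q and 10080 to 13160 in WT/WT mice of 12 months. Of 9 immediate early genes, which follow neuronal activity and handling, 1 was lower (Dusp1, −1.15, adjusted p = 0.036) and 1 higher (Arc, 0.34, adjusted p = 0.0198), with a median of −0.64 and summed levels of 2477 to 8082 in 304Q/304Q and 5617 to 9572 in WT/WT mice. Of the cell type markers, 4 of 5 for Purkinje cells, 3 of 5 for oligodendrocytes and 2 of 5 for Bergmann glia and astrocytes were lower in 304Q/304Q mice at 12 months. In the list of Bergmann glia and astrocytes, Gfap and Aqp4 had higher means in 304Q/304Q mice (2842 against 2497 and 5483 against 4933 normalized counts). That list had a median log2 fold change of −0.09. For granule cells 0 of 6 and for microglia 0 of 5 passed by edgeR or DESeq2 (0 and 1 at an unadjusted p under 0.05). Summed levels of the markers were 62930 to 69420 against 76420 to 86920 (Purkinje cells) and 43240 to 61000 against 67590 to 76960 (oligodendrocytes) normalized counts, in 304Q/304Q and WT/WT mice. Choroid plexus markers ran from 191.6 to 21210 and from 298.8 to 29810. With these last as a covariate, Per1, Per3, Cry2, Nr1d1 and Dbp still passed. The part of the other groups in the members' differences was not tested.

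Mice of 1 group differed among themselves far more in some members than in others. After subtraction of the group means, Per2 had an SD of 0.55 on the log2 CPM scale between mice and Per1 of 0.42, higher than in 99.4% and 98.1% of all genes tested. Ciart (0.35, higher than in 94.3%) and Cry1 (0.25, higher than in 81% of genes) were also variable. Nr1d1 (0.08) and Cry2 (0.09) were among the steadier genes, with a lower SD in 10.1% and 13.9% of genes, while Arntl (0.14), Per3 (0.15), Dbp (0.16) and Clock (0.17) were near the median of all genes (0.15).

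To see whether the members varied together from mouse to mouse, Pearson's r was computed for all 45 pairs over the 20 mice after subtraction of the group means, with 2-sided permutation tests within groups (100000 draws) and adjustment over the 45 pairs. It passed for 5 pairs. The share of pairs that pass among all genes was not computed, so this number is not shown to be particular to the members. Per2 and Cry1 had r = 0.79 (adjusted permutation p = 0.0233; Spearman's rho = 0.73, adjusted permutation p = 0.035). Per1 and Per2 had r = 0.74 (0.0233; rho = 0.67, adjusted 0.0483), and Per1 and Cry1 r = 0.75 (0.0279; rho = 0.80, adjusted 0.035). Cry1 and Clock had r = 0.77 (0.0233; rho = 0.60, adjusted 0.136). Arntl and Ciart ran opposite to each other, with r = −0.70 (0.0233; rho = −0.67, adjusted 0.035). The unadjusted permutation p of the 5 lay between 0.00063 (Per2 and Cry1) and 0.0031 (Per1 and Cry1).

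Without the 2 mice farthest from the median of the first gene of each pair, the 5 r were 0.67 (Per2 and Cry1), 0.67 (Per1 and Per2), 0.68 (Per1 and Cry1), 0.56 (Cry1 and Clock) and −0.49 (Arntl and Ciart), and 0 of the 45 pairs passed (adjusted permutation p of the 5 from 0.171 to 0.254). Leaving out the most extreme mice narrows the range of the gene and lowers n. The calls were not kept without them, while r changed little for the 3 pairs of Per1, Per2 and Cry1. WT/WT replicate 1 of 2 months was among the mice left out for all of the 5 pairs but that of Arntl and Ciart. In the 10 WT/WT mice r was 0.92, 0.85, 0.80, 0.86 and −0.51 in the same order, and in the 10 304Q/304Q mice 0.44, 0.49, 0.54, 0.20 and −0.82. With the offsets for GC content and gene length, r of Cry1 and Clock was 0.37, and r of the other 4 pairs lay between 0.70 and 0.79 in size.

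**Figure D3:**
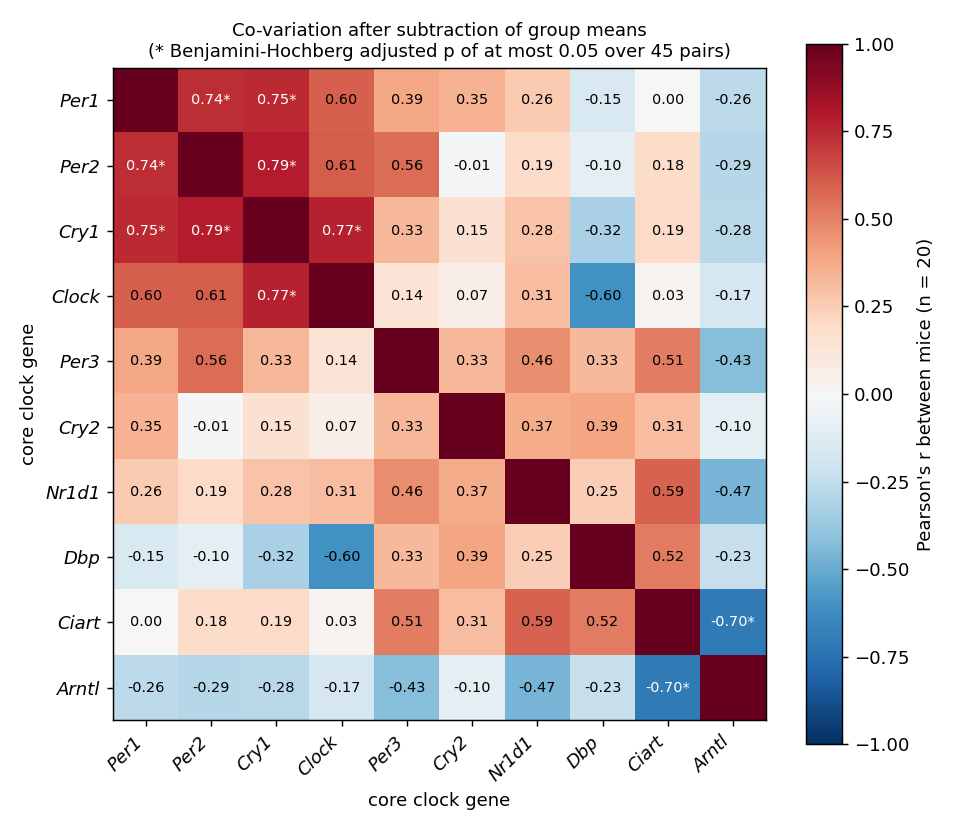
Pearson's r between the 10 core clock genes over the 20 mice, after subtraction of the group means from log2 CPM, with red for positive and blue for negative values. Per1, Per2, Cry1 and Clock form a block of positive values, Arntl is negative against the 9 others on this scale, and asterisks mark the 5 pairs that passed.

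Over the 20 mice Arntl had a negative r with each of the 9 other members, from −0.10 (Cry2) to −0.70 (Ciart), with −0.47 for Nr1d1 and −0.43 for Per3. The 9 values share the same Arntl measurements and are a description. The sign was not the same at both ages. In the 10 mice of 2 months r was negative with all 9, but in the 10 mice of 12 months it was positive with 5 of them, Per2 (0.36), Per1 (0.31), Clock (0.22), Cry1 (0.08) and Per3 (0.08), and negative with Ciart (−0.68), Dbp (−0.41), Nr1d1 (−0.39) and Cry2 (−0.14). By genotype, r was 0.18 with Per1 in 304Q/304Q mice and 0.07 with Dbp in WT/WT mice, and the other values were negative. With the offsets for GC content and gene length, r with Clock was 0.19, and without the 2 mice farthest from the median of Arntl, r was 0.04 with Cry2 and 0.13 with Dbp. The annotated antisense gene Gm45355 shares 33 exonic bases with Arntl. Nr1d1, Per3 and Dbp had positive r with Ciart (0.59, 0.51 and 0.52), and Clock and Dbp were negative (−0.60), none of which passed over the 45 pairs by Pearson's r. By Spearman's rho, Nr1d1 and Ciart passed (rho = 0.69, adjusted permutation p = 0.035). A principal component analysis of the 10 genes used log2 CPM minus the group mean, with each gene scaled. The first component held 39.8% of this variance within groups, led by Cry1, Per2 and Per1 with Arntl opposite. The second held 26.3%, led by Dbp and Ciart with Clock opposite. The mean of each group lies at the centre by construction, so the components show only the spread within groups. The 304Q/304Q mice of 12 months spread between −1.06 and 1.04 on the first component, and the WT/WT mice of the same age between −3.43 and 2.46.

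**Figure D4:**
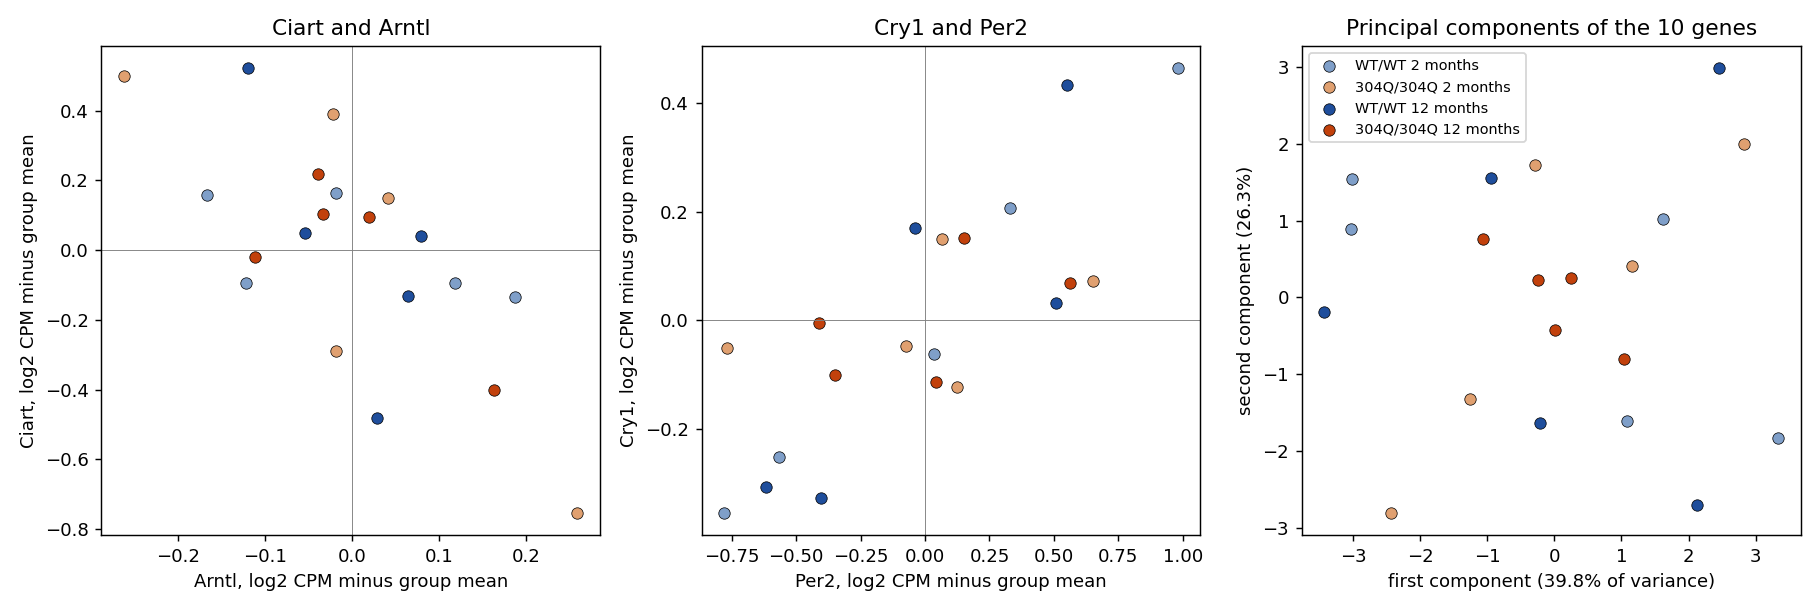
Left and middle, log2 CPM minus the group mean of Ciart against Arntl and of Cry1 against Per2, with 1 point per mouse coloured by group (n = 20). Right, the first 2 principal components of the 10 genes for the same mice, also after subtraction of the group means, so that each group is centred by construction. Ciart falls as Arntl rises, Cry1 rises with Per2, and the 12-month 304Q/304Q mice spread less on the components than the WT/WT mice of that age.

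Fitted on the counts, with Arntl's deviation from its group mean as a covariate in edgeR, 0 of the 9 other members and 0 of 12152 genes (0%) passed, with 1497 genes and 1 member at an unadjusted p under 0.05. That member was Ciart, with a slope of −1.76 (SE 0.41) log2 units per log2 unit of Arntl (unadjusted p = 2.77e-04, adjusted p = 0.276). The slopes of the other 8 were also negative, from −0.07 (Cry2) to −0.75 (Per2), with standard errors of 0.15 to 0.89. Without the 12-month WT/WT replicate 1, Ciart passed (adjusted p = 0.0098) and 667 genes did, and in the 10 304Q/304Q mice alone it also passed (adjusted p = 0.0329). The number of all genes called in the 304Q/304Q mice alone is not given here, so that call is not shown to be particular to Ciart.

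Among all genes tested, those most like Arntl over the 20 mice were Slc1a4 (r = 0.81), Crip2 (0.77), Arhgap10 (0.75), Erbb3 (0.75) and Tmod1 (0.73), and those most opposite were Ostm1 (−0.85), Zfp945 (−0.80), Fgfbp3 (−0.78), Gtdc1 (−0.77) and Btbd8 (−0.77). For Dbp they were Sowaha (0.77), Nudt9 (0.77), Arl16 (0.75), Auh (0.75) and Psme1 (0.75), and opposite Mast4 (−0.83), Pcdh15 (−0.79), Zbtb1 (−0.79), Wipf1 (−0.78) and Klhl18 (−0.78). These r are a description, chosen as extremes among all genes. Of the clock genes, Tef came nearest to the opposite end for Arntl (r = −0.74, rank 8 from the lowest), before Ciart (−0.70, rank 22), and Hlf, another D-box factor, had −0.61 (rank 155). The clock gene most like Arntl was Npas2 (r = 0.51, rank 387 from the highest), and the one most like Dbp was Bhlhe40 (r = 0.60, rank 127).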

How the data were processed

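Per the labels and the study's methods, cerebellar RNA of 20 mice was sequenced from polyA-enriched stranded libraries. Alignment by the authors was to GRCm38 with STAR (2.4.5b in the submitters' processing notes), and the deposited values are whole-number Rsubread counts per gene, without normalization. Here, genes averaging 50 counts or more were scaled with TMM and fitted with edgeR 4.0.16 in R 4.3.3 (quasi-likelihood, 1 term per group), with Benjamini-Hochberg adjustment over all 12153 genes. A gene was called at an adjusted p of up to 0.05, and the fold threshold of 0.5 (log2) followed the study's methods. Log2 CPM used a prior count of 2. Gene names and positions came from GENCODE M21, which matched 29150 IDs. Alternatives were DESeq2 1.42.0, surrogate variables (3, sva 3.50.0), which the study used, DESeq2's size factors, other filters, fits of the 2 groups alone, a replicate block, GC content and length offsets and each library left out. Leaving out both WT/WT replicates 1 and a choroid plexus covariate were added after the data were seen. The fits were tested on simulated counts. Members and lists were chosen with earlier results of these data known. The text names all members, other clock genes past the adjusted p between genotypes, and the 5 genes most and least like Arntl and Dbp. Of the other clock genes past the adjusted p with age, only Usp2 is named. Nr1d2, Npas2, Hlf and the named genes of the glucocorticoid and early lists were chosen after their values were seen. No pair of replicate libraries agreed within counting error (chi-square over degrees of freedom of 4.43 or more). The common biological coefficient of variation was 0.113, and all intervals and p-values rest on 5 mice per group. Some genes of the lists are not reported here.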

Additional observations from a re-analysis of the deposited data

Results flagged for a closer look

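Of the 40 sets of 5 mice (10 genes in 4 groups), 3 held a mouse far from the other four by Dixon's test (a gap of over 0.71 of the range), where chance gives about 1 in 20. For Per1, the 12-month 304Q/304Q replicate 5 was at 7.28 log2 CPM with the others at 6.52 to 6.61. Clock stood at 7.05 log2 CPM in the 12-month WT/WT replicate 1 and at 6.49 to 6.60 in the others. Dbp in the 12-month 304Q/304Q replicate 2 was at 5.30, and the others were at 5.45 to 5.49. Without these mice the 12-month log2 fold changes were −1.25 (Per1), 0.40 (Clock) and −0.64 (Dbp).

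The genotype effect differed between the ages, by the interaction test of edgeR, for Nr1d1 (log2 difference −0.50, adjusted p = 0.00076) and for Dbp (−0.775, adjusted p = 0.00233). Both kept this call in each of the 20 fits that left out 1 library.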

How the results depend on the processing

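Comparisons with an alternative were made for the fold changes of named genes and for r of the 5 pairs that passed. In 360 of these 395, direction and call were kept, and none of these values changed sign. In 178 of 197 comparisons of a count, the number of members called was the same as in the main fit or near it. Which members made up the number was not compared there. The 5 members called between genotypes at 12 months were called under every alternative run but the threshold on the fold change, which left 3; the counts lay between 5 and 7, and with 1 library left out between 5 and 6. For age in WT/WT mice (2 members), surrogate variables gave 5 with DESeq2 and 5 with edgeR, only the groups compared gave 1, the GC content and length offsets 1, the choroid plexus covariate 1 and the fold threshold 0, and with 1 library left out the count lay between 1 and 2, Cry2 being called in all of those fits. For age in 304Q/304Q mice the fold threshold left 1. For the interaction (2 members), edgeR with surrogate variables gave 5, and with 1 library left out the count lay between 2 and 3. For co-variation with Arntl (0), it was 1 in the 304Q/304Q mice alone, 1 without both WT/WT replicates 1, and from 0 to 1 when single libraries were left out. Except where given below, the counts under alternatives stand without the number of all genes called in the same fit. A change is therefore not shown to be particular to the members. The causes were not tested. With 1 library left out, the number of all genes called ran from 155 to 555 (237 with every library) for the interaction and from 717 to 2540 (1398 with every library) for age in WT/WT mice, both highest without the 12-month WT/WT replicate 1. At 2 months it went from 6 to 52 with DESeq2 and surrogate variables, while 0 members were called under each alternative run.

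The numbers of the replicates were not taken as pairs in the main fit. Same-numbered mice had correlations between −0.323 and 0.551, and at most 2 of 5 correlated best with their own number. Both highest values were found between the WT/WT mice of 2 and 12 months. Whether a replicate number marks a shared factor was not tested. With the replicate number as a block, 0 members were called at 2 months, 6 at 12 months (Clock added), 2 and 2 with age, 2 for the interaction and 0 with Arntl. The effect of depth or of the number of mice was not tested, and the time of day of sampling, which is not given in the sources used here, was not tested.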

Other observations

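The median SD of the members on the log2 CPM scale was lowest among the 304Q/304Q mice of 12 months, at 0.109 (n = 5), against 0.208 in WT/WT mice of that age. At 2 months it was 0.154 (WT/WT) and 0.19 (304Q/304Q). Of the 10 members, 4 (Per2, Per3, Nr1d1 and Dbp) had their lowest SD in the 304Q/304Q mice of 12 months and 4 (Per1, Cry1, Cry2 and Clock) in the 304Q/304Q mice of 2 months. Ciart had it in the WT/WT mice of 2 months (0.148 against 0.24 in the 304Q/304Q mice of 12 months) and Arntl in the WT/WT mice of 12 months. Over all genes tested the medians were 0.131 (304Q/304Q) and 0.155 (WT/WT) at 12 months and 0.134 and 0.15 at 2 months. For Cry1 the SD was 0.113 in 304Q/304Q and 0.324 in WT/WT mice of 12 months, for Nr1d1 0.0441 and 0.121, for Dbp 0.0806 and 0.19, and for Per2, the widest of them, 0.396 and 0.527. Only Arntl had a higher SD in the 304Q/304Q mice of 12 months (0.102) than in the WT/WT mice of that age (0.0842). The difference in spread was not tested.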
